A study of Mus musculus with 12 samples.

Results

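Whole livers of 3 CflarLKO mice were compared with whole livers of 3 CflarFF mice after 28 days of a choline-deficient, ethionine-supplemented (CDE) diet, and 6 of the 12 libraries of the series belong to this experiment. Both groups were female C57BL/6 mice that carry *Cflar* alleles with exon 1 between loxP sites and that were 8 weeks old when the diet began; choline was left out of their food and their drinking water held 0.15% DL-ethionine. CflarLKO mice also carry a Cre recombinase under the *albumin* promoter, which was used to delete *Cflar* in hepatocytes. The study describes some cFLIP as still present in these hepatocytes. It found *Cflar* not diminished in nonparenchymal liver cells of mice in which a further gene, *Fgf18*, was also deleted in hepatocytes. The table lists 31663 genes, all of which entered the comparison, and 17036 had enough counts to be tested. Values are normalized counts, that is read counts divided by library size and a TMM factor and brought to a common scale, and changes are log2 fold changes (CflarLKO over CflarFF) from the quasi-likelihood test of edgeR. A gene was called where the p-value, adjusted by Benjamini and Hochberg's method over all genes tested, was under 0.05.

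*Cflar* encodes cFLIP, a relative of caspase 8 without protease activity that restrains caspase 8 at death receptors. Without choline, hepatocytes cannot make enough phosphatidylcholine to export triglyceride, and ethionine is a methionine analog that burdens the methyl donor cycle, so that the diet causes fatty injury, inflammation and a ductular reaction. Hepatocytes make most plasma proteins, detoxify drugs, make bile acids and urea, and store and release glucose and fat, and a small set of transcription factors keeps the genes of these functions on.

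Read counts summed to 10414883, 8743762 and 6487178 in CflarLKO libraries and to 9746145, 8224069 and 8917802 in CflarFF libraries. TMM factors ran from 1.14 to 1.22 in CflarLKO libraries and from 0.818 to 0.912 in CflarFF libraries, so the scale itself differs between the groups. The 10 genes with the most counts took 12.7% to 14.0% of the counts in CflarLKO libraries and 15.3% to 21.0% in CflarFF libraries. CflarFF replicate 2 stood apart from the other CflarFF livers and lay nearer to the CflarLKO livers than they did, as described at the end. It was still closer to the other CflarFF livers than to any CflarLKO liver. Markers of hepatocytes took 6.43% to 7.44% of the counts in CflarLKO libraries and 7.58% to 13.6% in CflarFF libraries and those of pancreatic acinar cells at most 0.00322% in either group. The hepatocyte share depends in good part on *Alb*, which is among these markers. *Alb* had 185316, 208833 and 169109 read counts in CflarLKO libraries and 762607, 226369 and 449421 in CflarFF libraries.

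*Cflar* had 460, 449 and 477 normalized counts in CflarLKO livers, against 592, 608 and 716 in CflarFF livers. The groups did not overlap (log2 fold change -0.47, standard error 0.13, adjusted p = 0.0235), but the call was lost under library size only (-0.01), without CflarFF replicate 3 (-0.37) and without CflarLKO replicate 1 (-0.47), 2 (-0.45) or 3 (-0.50). Across all genes, 2652 were higher in CflarLKO livers (15.6% of those tested) and 2240 were lower (13.1%). Changes over 2-fold numbered 1980 upward (11.6%) and 691 downward (4.06%). In 7642 genes (44.9%) the groups did not overlap. Without the TMM factors, that is with library size only, the median gene changed by 0.46 on the log2 scale instead of -0.0016, and 6649 genes were called higher and 647 lower. Lower genes numbered 1280 without CflarLKO replicate 1 and 1235 without CflarLKO replicate 2. In whole liver, fewer hepatocytes and less RNA per hepatocyte cannot be told apart.

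The genes of hepatocyte function were lower in CflarLKO livers. Of 619 tested members of 24 such lists, 343 fell (55.4%, against 13.1% of all genes) and 26 rose (4.20%, against 15.6%), with a median log2 fold change of -0.72. Under library size only 185 fell and 57 rose, with a median of -0.26. Without CflarFF replicate 2 the numbers were 372 and 32 of 620 tested. Of 20 hepatocyte markers 12 fell (7 under library size only and 7 without CflarLKO replicate 1 or 2), and the part of hepatocyte number in the falls below was not tested.

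**Figure D1:**
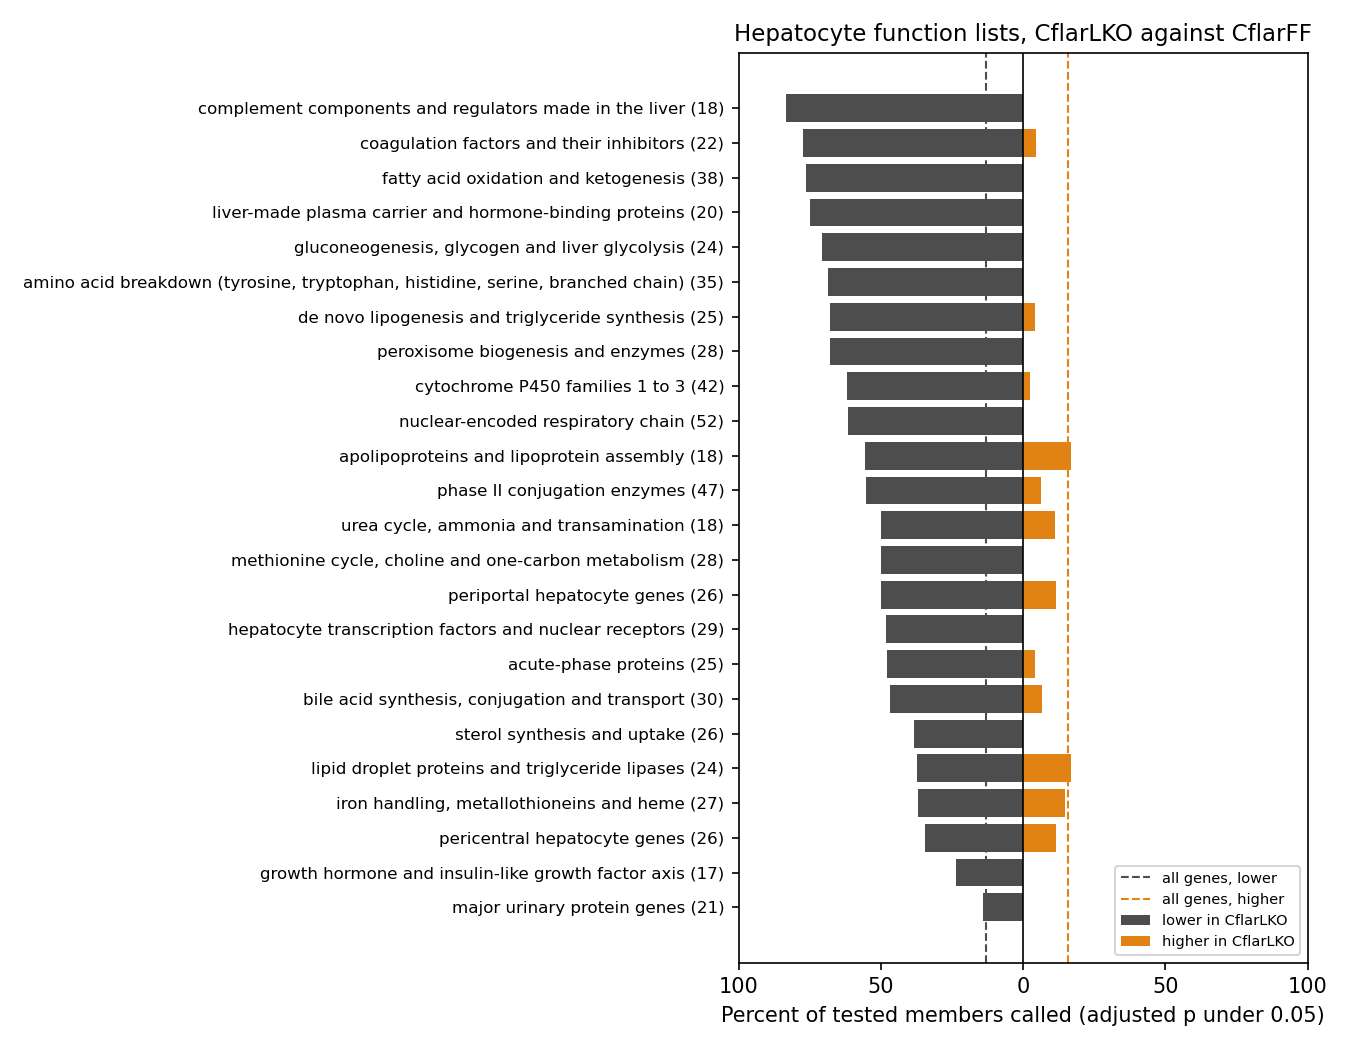
Percent of tested members of each of 24 hepatocyte function lists that were called lower (left of 0) or higher (right of 0) in CflarLKO livers, with the number tested in brackets. Dashed lines mark the 13.1% lower and 15.6% higher of all genes tested. Complement genes had the highest share lower (83.3%) and major urinary protein genes the lowest (14.3%).

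Genes for proteins that the liver secretes into plasma were lower for the most part. Of 20 carrier and hormone-binding proteins 15 fell (12 under library size only), with a median log2 fold change of -1.07, and the other 5 did not pass the test. *Alb*, the main plasma protein, had 129689, 181530 and 203380 normalized counts in CflarLKO livers, against 846493, 267101 and 534532 in CflarFF livers. The groups did not overlap, the CflarFF livers differed among themselves by more than 3-fold, and the change of -1.68 (adjusted p = 0.00984) lost its call without CflarLKO replicate 1 (-1.52). *Itih4*, an inter-alpha-trypsin inhibitor heavy chain, had 1134, 1632 and 2075 in CflarLKO livers, against 6644, 4367 and 7024 in CflarFF livers. All CflarLKO values lay below all CflarFF values (-1.90, standard error 0.26, adjusted p = 0.00062). *Ttr*, the carrier of thyroid hormone and retinol-binding protein, changed by -1.05 (adjusted p = 0.0025) and *Selenop*, which carries selenium, by -1.41 (adjusted p = 0.00139). *Ahsg*, which encodes fetuin-A, did not follow the others: it had 123952, 130578 and 130493 normalized counts in CflarLKO livers, against 133865, 148255 and 117810 in CflarFF livers (-0.05, adjusted p = 0.862; 0.40 under library size only and 0.030 without CflarFF replicate 2).

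Clotting and complement genes fell to a like extent. Of 22 genes for coagulation factors and their inhibitors 17 fell (77.3%; 11 under library size only) and 1 rose, with a median of -1.06. *F7*, the start of the extrinsic pathway, had 317, 375 and 318 normalized counts in CflarLKO livers and 935, 755 and 1000 in CflarFF livers. This gap was wide for the spread within either group (-1.41, standard error 0.15, adjusted p = 0.000192). *Klkb1*, plasma prekallikrein, fell by 1.60 on the log2 scale and *Fgg*, the fibrinogen gamma chain, fell by 1.17. The gene that rose was *Pros1*, protein S, a cofactor of activated protein C that non-hepatocytes also make, with 367, 386 and 403 in CflarLKO livers and 218, 204 and 234 in CflarFF livers (0.82, adjusted p = 0.00132). Of 18 complement genes 15 fell (83.3%; 8 under library size only), with a median of -0.97. *Mbl2*, a mannose-binding lectin that starts the lectin pathway, had 1720, 1391 and 1578 in CflarLKO livers, against 8254, 4396 and 5986 in CflarFF livers (-1.99, adjusted p = 0.000249). *C3*, the central component, had 22956, 26020 and 23762 in CflarLKO livers, against 40832, 39828 and 38404 in CflarFF livers (-0.71, adjusted p = 0.0119; -0.26 and not called under library size only).

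Genes for apolipoproteins and acute-phase proteins were mixed. Among 18 apolipoprotein and lipoprotein genes 10 fell (4 under library size only, 5 without CflarLKO replicate 1 and 5 without CflarLKO replicate 2) and 3 rose. *Apoh*, which binds phospholipid, had 5624, 5781 and 6237 normalized counts in CflarLKO livers and 17222, 14275 and 17191 in CflarFF livers (-1.46, adjusted p = 0.00029). *Pltp*, the phospholipid transfer protein, went the other way, with 619, 707 and 548 in CflarLKO livers and 302, 370 and 224 in CflarFF livers (1.06, adjusted p = 0.00196), as did *Apoc2*, an activator of lipoprotein lipase (0.92, adjusted p = 0.00635). Among 25 acute-phase genes 12 fell (48.0%; 10 under library size only) and *Lcn2* rose (4 genes rose without CflarFF replicate 2 and 2 without CflarFF replicate 3). *Hp*, haptoglobin, which binds free hemoglobin, fell by 1.42 and *Saa4*, a constitutive serum amyloid A, fell by 1.96. *Lcn2*, an iron-siderophore binding protein made by injured hepatocytes and by neutrophils, had 2610, 2993 and 4925 in CflarLKO livers, against 259, 713 and 350 in CflarFF livers (2.99, standard error 0.44, adjusted p = 0.00302).

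Some of the transcription factors that keep the hepatocyte program on fell. Of 29 hepatocyte transcription factors and nuclear receptors 14 fell (48.3%; 8 under library size only, 9 without CflarLKO replicate 2 and 20 without CflarFF replicate 2) and the other 15 did not pass the test. *Hnf4a*, a nuclear receptor central to hepatocyte identity, had 1279, 1539 and 1633 normalized counts in CflarLKO livers and 3033, 2765 and 3111 in CflarFF livers. The groups were well apart (a fall by a factor near 2, standard error 0.16, adjusted p = 0.00128). *Cebpa*, which drives genes of metabolism and restrains growth, had 1083, 1319 and 1021 in CflarLKO livers, against 3640, 2617 and 1678 in CflarFF livers (-1.21, adjusted p = 0.00593). *Cebpb*, its relative in the acute-phase and regeneration responses, stood at 2162, 2150 and 1990 in CflarLKO livers and at 2426, 2232 and 2263 in CflarFF livers (-0.14, adjusted p = 0.524; 0.32 under library size only).

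A few changed genes, lower and higher ones, hold a recognisable promoter element, and 4 windows are shown to make it visible. They come from RefSeq promoters on GRCm38.p6, not the GRCm39 build of the reads, and the element, the HNF1 palindrome (GTTAAT, any base, ATT, any 2 bases and C), was searched on both strands over 250 bases before the start site after the values were seen. It occurs in 0.116% of 32851 promoter windows. Only 67.3% of the tested genes had a window, too few for a comparison of gene groups, so none was made. The element was found in 6 of 691 genes over 2-fold lower and in 2 of 1980 over 2-fold higher, genes without a window included. Hits on a single chromosome were left out of these counts, though not of the 0.116%, so the counts may be too low. The share among all tested genes was not counted, and the 0.116% is a share of windows, not of genes. The counts therefore cannot be read against each other or against a background. A link between the element and the falls was not tested. Each window below is given 5′ to 3′ on the strand of its gene, with the element in capitals. *Sult1d1* is a sulfotransferase of the liver and kidney at chr5:87569058-87569100 on the minus strand, *Afm* is the vitamin E carrier afamin at chr5:90518796-90518838 on the plus strand, *C4bp* is a complement regulator at chr1:130661655-130661697 on the minus strand and *Afp* is the fetal plasma protein alpha-fetoprotein at chr5:90490594-90490636 on the plus strand.
Sult1d1: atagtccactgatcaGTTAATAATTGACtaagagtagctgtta
Afm: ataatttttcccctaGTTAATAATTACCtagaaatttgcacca
C4bp: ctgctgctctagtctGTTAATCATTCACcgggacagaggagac
Afp: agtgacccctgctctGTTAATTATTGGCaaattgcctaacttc
The element began 79 bases before the start in *Sult1d1*, 138 in *Afm*, 64 in *C4bp* and 105 in *Afp*. *Sult1d1* had 252, 681 and 565 normalized counts in CflarLKO livers and 2120, 2519 and 4451 in CflarFF livers (-2.60, adjusted p = 0.00619). *Afm* had 178, 239 and 266 in CflarLKO livers and 1290, 566 and 1120 in CflarFF livers (-2.13, adjusted p = 0.00165). *C4bp* had 2030, 2330 and 2094 in CflarLKO livers and 5432, 3933 and 5256 in CflarFF livers (-1.18, adjusted p = 0.000935). *Afp*, with the same element, moved in the opposite direction, with 1623, 527 and 710 in CflarLKO livers, against 16.6, 94.4 and 22.6 in CflarFF livers (4.43, standard error 0.86, adjusted p = 0.0208). Its call was lost without CflarFF replicate 1 (4.02), CflarFF replicate 3 (4.11) or CflarLKO replicate 3 (4.59), and its change was 5.60 without CflarFF replicate 2 and 3.79 without CflarLKO replicate 1.

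Genes of drug metabolism fell, the P450 genes more deeply than the conjugation enzymes. Of 42 cytochrome P450 genes of families 1 to 3, 26 fell (61.9%; 19 under library size only, 32 without CflarFF replicate 2), with a median log2 fold change of -1.45 and 21 over 2-fold lower. Close P450 paralogs may share reads. *Cyp2e1*, which oxidises ethanol and small solvents near the central vein, had 23851, 21575 and 23916 normalized counts in CflarLKO livers and 71724, 42373 and 73099 in CflarFF livers (-1.43, standard error 0.24, adjusted p = 0.00147). *Cyp2j5*, an epoxygenase of arachidonic acid, had 35.7, 69.5 and 85.4 in CflarLKO livers, against 1511, 271 and 1329 in CflarFF livers. The groups were far apart, with CflarFF replicate 2 closest to the CflarLKO livers, and its call (-4.06, adjusted p = 0.0231) was lost when any library but CflarFF replicate 2 was left out (-3.69 to -4.32). *Cyp3a11*, the main enzyme of drug oxidation, overlapped between the groups, with 23934, 33148 and 28584 in CflarLKO livers and 37462, 25883 and 66577 in CflarFF livers (-0.60, adjusted p = 0.179), and fell by 0.86 with a call when CflarFF replicate 2 was left out. Of 47 conjugation enzymes 26 fell (16 under library size only, 16 without CflarLKO replicate 1 and 17 without CflarLKO replicate 2) and 3 rose (1 without CflarFF replicate 3 and 4 without CflarLKO replicate 1, but none without CflarLKO replicate 2 or 3). The median of these 47 genes was -0.67 (-0.22 under library size only). The conjugation list took 2.00% to 2.40% of the counts in CflarLKO libraries and 1.68% to 2.26% in CflarFF libraries. *Mgst1*, a membrane-bound glutathione transferase, fell by 0.89 (not called under library size only, -0.43). *Gstm3*, a cytosolic one with close paralogs, had 21225, 32469 and 32620 in CflarLKO livers, against 2850, 11457 and 8209 in CflarFF livers (1.94, adjusted p = 0.0226), a call lost without CflarFF replicate 3 (2.01) or CflarLKO replicate 2 (1.84) or 3 (1.83). *Adh1*, alcohol dehydrogenase, had 19988, 17815 and 16475 in CflarLKO livers and 57430, 31976 and 68997 in CflarFF livers (-1.55, adjusted p = 0.00198).

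Bile acid genes fell in part. Among 30 such genes 14 fell (7 under library size only, 9 without CflarLKO replicate 1 and 9 without CflarLKO replicate 2) and 2 rose. *Cyp8b1*, the sterol 12-alpha-hydroxylase that makes cholic acid, had 318, 319 and 391 normalized counts in CflarLKO livers and 2547, 820 and 2177 in CflarFF livers (-2.43, adjusted p = 0.00519). *Slc10a1*, the main bile acid importer of hepatocytes, had 660, 555 and 1265 in CflarLKO livers and 3603, 3874 and 3502 in CflarFF livers (-2.15, standard error 0.29, adjusted p = 0.00078). Here the CflarFF livers were close to each other and CflarLKO replicate 3 was the highest of its group. The genes that rose were *Slc51b*, a subunit of the basolateral exporter, with 39.9, 50.4 and 39.7 in CflarLKO livers and 9.99, 21.2 and 22.6 in CflarFF livers (1.28, adjusted p = 0.0139; not called without CflarLKO replicate 2, 1.15), and *Abcc4*, another basolateral exporter (1.27, adjusted p = 0.0224), whose call was lost without CflarFF replicate 1 (1.14), CflarLKO replicate 1 (1.23) or CflarLKO replicate 2 (1.24).

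Genes of amino acid breakdown fell for the most part, and those of the urea cycle and ammonia handling in part. Of 35 genes of amino acid breakdown 24 fell (68.6%; 16 under library size only), with a median of -0.88. *Tdo2*, which opens the ring of tryptophan, had 7443, 6566 and 6630 normalized counts in CflarLKO livers and 17259, 15773 and 19827 in CflarFF livers (-1.36, adjusted p = 0.000485). *Hal*, histidine ammonia-lyase, had 251, 447 and 413 in CflarLKO livers and 2334, 753 and 1541 in CflarFF livers (-2.06, adjusted p = 0.0167; not called without CflarFF replicate 3, -2.06). Among 18 genes of the urea cycle and ammonia handling 9 fell (5 under library size only, 5 without CflarLKO replicate 1 and 5 without CflarLKO replicate 2) and 2 rose. Their median was -0.49, and -0.036 under library size only. *Cps1*, which starts the cycle, had 7853, 11094 and 12561 in CflarLKO livers and 14058, 16761 and 22929 in CflarFF livers. The groups did not overlap, but its change of -0.77 (adjusted p = 0.0328) lost its call under library size only (-0.32) and without CflarFF replicate 3 (-0.55) or CflarLKO replicate 1 (-0.60) or 2 (-0.81). *Gls2*, the liver glutaminase that feeds ammonia to the cycle, fell by 1.22 (adjusted p = 0.00181). *Rhbg*, an ammonium transporter of pericentral hepatocytes, had 613, 480 and 429 in CflarLKO livers, against 91.0, 209 and 113 in CflarFF livers (1.89, adjusted p = 0.0022).

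The methionine and choline genes bear on the diet itself, which removes choline and supplies ethionine to both groups. Of 28 such genes 14 fell (9 under library size only) and the other 14 did not pass the test, with a median of -0.55. *Bhmt*, which makes methionine from homocysteine with betaine, a product of choline, had 7554, 12471 and 15315 normalized counts in CflarLKO livers and 25834, 29153 and 27861 in CflarFF livers (-1.23, standard error 0.25, adjusted p = 0.00413). *Ahcy*, which clears S-adenosylhomocysteine, had 1279, 1469 and 1965 in CflarLKO livers and 3441, 4047 and 4485 in CflarFF livers (-1.35, adjusted p = 0.000819). Both genes were tight in CflarFF livers, and CflarLKO replicate 1 was the lowest liver for each. *Mat1a*, which makes the methyl donor S-adenosylmethionine, had 7608, 7479 and 9078 in CflarLKO livers, against 9261, 11508 and 9422 in CflarFF livers, and did not pass the test (-0.32, adjusted p = 0.205; 0.13 under library size only).

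Genes of fat burning and of fat synthesis fell together. Of 38 genes of fatty acid oxidation and ketogenesis 29 fell (76.3%; 17 under library size only), with a median of -0.92, and of 25 genes of lipogenesis and triglyceride synthesis 17 fell (68.0%; 10 under library size only, 11 without CflarLKO replicate 1) and 1 rose. *Ppara*, the fatty acid receptor that drives oxidation, had 221, 189 and 243 normalized counts in CflarLKO livers, against 738, 328 and 596 in CflarFF livers (-1.35, adjusted p = 0.00625). On the synthesis side *Thrsp*, a promoter of lipogenesis, had 336, 333 and 583 in CflarLKO livers and 2079, 1526 and 2325 in CflarFF livers (-2.25, standard error 0.25, adjusted p = 0.000275), and *Pklr*, liver pyruvate kinase, fell by 1.69. *Scd2*, a stearoyl-CoA desaturase scarce in adult liver, was the gene that rose, with 185, 187 and 170 in CflarLKO livers and 76.6, 103 and 82.1 in CflarFF livers (1.05, adjusted p = 0.00136).

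Lipid droplet and peroxisome genes followed in part. Among 24 droplet proteins and lipases 9 fell and 4 rose (6 and 7 under library size only). *Fabp1*, the liver fatty acid-binding protein, had 5953, 6363 and 13269 normalized counts in CflarLKO livers and 19170, 20769 and 35997 in CflarFF livers (-1.57, adjusted p = 0.0126). *Fitm1*, which takes part in droplet formation, fell by 1.52 (adjusted p = 0.000132). *Cidec*, which fuses droplets, had 1097, 611 and 636 in CflarLKO livers and 244, 211 and 91.6 in CflarFF livers (2.10, adjusted p = 0.0108). Of 28 peroxisome genes 19 fell (67.9%; 8 under library size only), with a median of -0.80. *Phyh*, which starts the breakdown of phytanic acid, had 1625, 1778 and 2271 in CflarLKO livers and 7401, 4398 and 8470 in CflarFF livers (-1.84, adjusted p = 0.000636), and *Cat*, catalase, fell by 0.86 (not called under library size only, -0.40).

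Sterol genes separated CflarFF replicate 2 from all other livers. Of 26 genes of sterol synthesis and uptake 10 fell (6 under library size only), and the other 16 did not pass the test. *Hmgcs1*, an early enzyme of the pathway, had 2646, 1698 and 2428 normalized counts in CflarLKO livers, against 2040, 5870 and 1849 in CflarFF livers (-0.53, adjusted p = 0.463; 0.21 without CflarFF replicate 2). *Tm7sf2*, a sterol reductase late in the pathway, had 140, 121 and 147 in CflarLKO livers and 353, 602 and 366 in CflarFF livers (-1.70, adjusted p = 0.000404), so that it was lower in CflarLKO livers than in each CflarFF liver although replicate 2 was again the highest. Leaving out CflarFF replicate 2 moved the median of the list from -0.74 to -0.20.

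Carbohydrate genes fell for the most part. Of 24 genes of gluconeogenesis, glycogen and liver glycolysis 17 fell (70.8%; 10 under library size only), with a median of -0.85. *Ppp1r3b*, which directs protein phosphatase 1 to glycogen, had 149, 220 and 261 normalized counts in CflarLKO livers and 1430, 699 and 1327 in CflarFF livers (-2.46, standard error 0.31, adjusted p = 0.000914). *Pck1*, the rate-setting enzyme of gluconeogenesis, overlapped between the groups, with 10154, 12111 and 16723 in CflarLKO livers and 14956, 15711 and 23501 in CflarFF livers (-0.47, adjusted p = 0.17).

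Respiratory chain genes fell by small amounts that depended on the scale. Of 52 nuclear-encoded genes 32 fell (61.5%), with a median of -0.54; under library size only 1 fell and the median was -0.09. Their number was also 20 without CflarFF replicate 3, 11 without CflarLKO replicate 1, 9 without CflarLKO replicate 2 and 20 without CflarLKO replicate 3. *Sdha*, the flavoprotein of complex II, had 1699, 1586 and 1791 normalized counts in CflarLKO livers and 2984, 2768 and 3750 in CflarFF livers (-0.90, adjusted p = 0.00267). Of 15 genes encoded by the mitochondrial genome 4 fell (1 under library size only, 2 without CflarFF replicate 1, CflarLKO replicate 1 or CflarLKO replicate 2, but 9 with DESeq2 and 10 with no filter on low counts), led by *mt-Rnr1*, the small ribosomal RNA of the organelle, with 5945, 7297 and 5375 in CflarLKO livers and 16602, 17076 and 13741 in CflarFF livers (-1.35, adjusted p = 0.000729). Among the CflarLKO livers replicate 1 was low for these genes, as for *mt-Nd2*, a subunit of complex I, with 16487, 27585 and 26744, against 48348, 39916 and 44986 in CflarFF livers (-0.91, adjusted p = 0.0125; not called under library size only, -0.46).

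**Figure D2:**
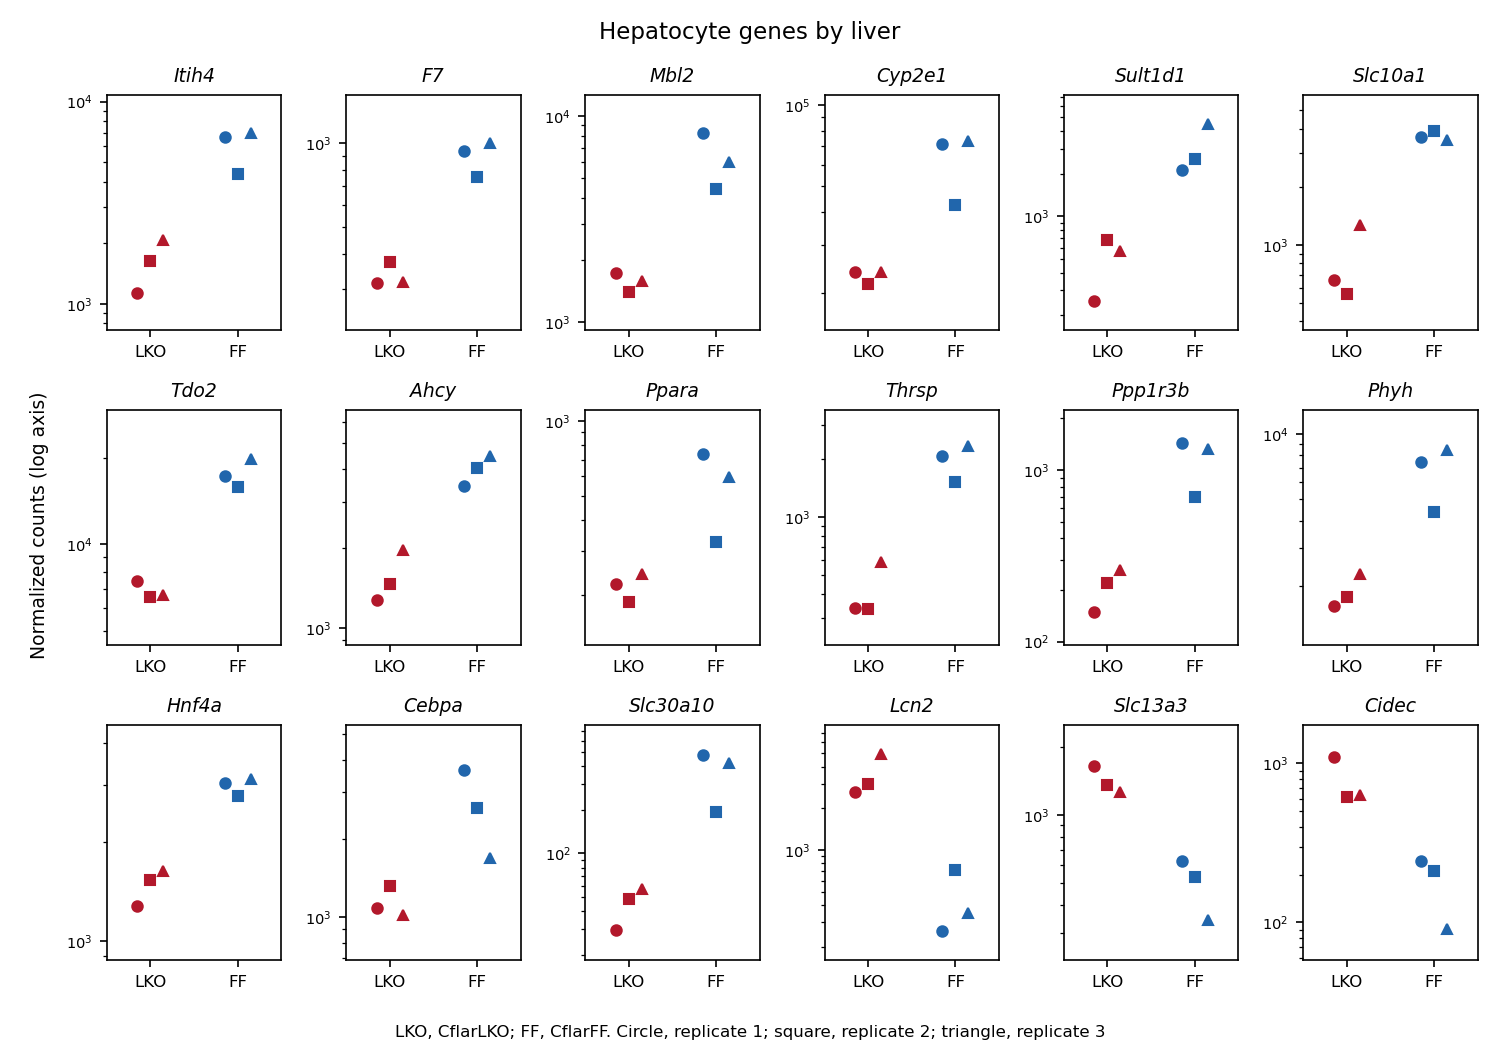
Normalized counts (log axis) of 18 hepatocyte genes in each liver, CflarLKO left and CflarFF right, with a symbol for each replicate. In all 18 genes the groups do not overlap, 15 being lower and *Lcn2*, *Slc13a3* and *Cidec* higher in CflarLKO livers. Many of them were chosen among called genes without overlap, and 44.9% of all genes tested had none.

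Genes of both zones of the lobule fell in part. The median log2 fold change was -0.72 for periportal and -0.50 for pericentral genes. Under library size only these medians were -0.27 and -0.048, and 4 and 5 genes rose. Among 26 periportal genes 13 fell (9 under library size only, 7 without CflarFF replicate 3 and 8 without CflarLKO replicate 1) and 3 rose, and among 26 pericentral genes 9 fell (3 under library size only, 5 without CflarLKO replicate 1 and 4 without CflarLKO replicate 2) and 3 rose; the difference between the zones was not tested. *Slc13a3*, a dicarboxylate transporter, rose within the pericentral list, with 1646, 1351 and 1266 normalized counts in CflarLKO livers and 622, 529 and 344 in CflarFF livers (1.51, standard error 0.21, adjusted p = 0.00076).

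Genes of metal handling fell in part, as did a few of the growth hormone axis. Of the metal genes 37.0% fell and 14.8% rose, against 13.1% and 15.6% of all genes. Among 27 genes of iron, zinc and heme handling 10 fell and 4 rose (3 and 6 under library size only; 5 fell without CflarLKO replicate 1 and 6 without CflarLKO replicate 2). *Slc30a10*, a manganese exporter, had 29.4, 48.7 and 56.5 normalized counts in CflarLKO livers and 480, 192 and 422 in CflarFF livers (-3.05, standard error 0.40, adjusted p = 0.00149), and *Slc39a4*, a zinc importer, had 520, 742 and 530 in CflarLKO livers and 114, 105 and 159 in CflarFF livers (2.24, adjusted p = 8.86e-05). *Tfr2*, an iron sensor that drives hepcidin, fell by 0.96. Of 17 genes of the growth hormone axis 4 fell (23.5%, against 13.1% of all genes, and 2 under library size only). *Ghr*, the growth hormone receptor, had 799, 767 and 731 in CflarLKO livers and 2209, 1056 and 2293 in CflarFF livers (-1.27, adjusted p = 0.00594), and *Igfals*, which holds IGF in plasma, fell by 1.57. Of 21 major urinary protein genes, close paralogs whose reads may be shared, 3 fell (14.3%, near the 13.1% of all genes, and 3 under library size only). *Mup3* had 252, 222 and 368 in CflarLKO livers and 2416, 1042 and 1590 in CflarFF livers (-2.59, adjusted p = 0.000978). *Mup9*, like most of the family, was high in CflarFF replicate 2 and alike in the other livers, with 2265, 1140 and 2788 in CflarLKO livers and 2031, 17526 and 2121 in CflarFF livers (-1.81, adjusted p = 0.29), and the median of the family was -1.78 with that liver and 0.11 without it.

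Genes of cell division rose in CflarLKO livers. Of 36 mitosis genes 23 rose (63.9%, against 15.6% of all genes), with a median log2 fold change of 1.61. The count was 10 without CflarFF replicate 1, 12 without CflarFF replicate 3 and 13 without CflarLKO replicate 3. *Aurka*, a spindle kinase, had 39.9, 53.9 and 143 normalized counts in CflarLKO livers and 6.66, 17.7 and 11.9 in CflarFF livers. The groups did not overlap and CflarLKO replicate 3 was far above its group (2.67, adjusted p = 0.0104; 1.94 without that liver, and not called without CflarFF replicate 3, 2.66). *Foxm1*, the transcription factor of the mitotic genes, had 16.1, 27.8 and 46.9 in CflarLKO livers and 4.44, 8.26 and 2.38 in CflarFF livers (2.51, adjusted p = 0.00572). Of 36 genes of DNA replication and G1/S 17 rose (10 without CflarLKO replicate 3) and 1 fell (2 without CflarFF replicate 1). *Ccnd1*, the cyclin of G1, had 2954, 1991 and 2518 in CflarLKO livers and 1343, 1009 and 1472 in CflarFF livers (0.96, adjusted p = 0.00455). The gene that fell was *Mcm10*, a replication initiation factor, with 49.7, 56.5 and 68.6 in CflarLKO livers and 159, 201 and 170 in CflarFF livers (-1.61, adjusted p = 0.00025).

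Fetal and ductular genes rose beside the fallen adult ones. Of 17 fetal liver and imprinted growth genes 13 rose (76.5%), and 16 of 19 tested without CflarFF replicate 2. *Ly6d*, a surface protein of epithelial progenitors, had 8735, 7382 and 6811 normalized counts in CflarLKO livers and 804, 2194 and 1562 in CflarFF livers (2.33, standard error 0.33, adjusted p = 0.00119). Of 18 markers of cholangiocytes and ductular cells 13 rose (72.2%; 8 without CflarFF replicate 3 and 8 without CflarLKO replicate 1), with a median of 1.59 (2.38 without CflarFF replicate 2). *Sctr*, the secretin receptor of bile duct cells, had 26.6, 33.0 and 22.9 in CflarLKO livers and 5.55, 4.72 and 1.19 in CflarFF livers (2.80, adjusted p = 0.00123). *Krt8*, a keratin of hepatocytes and duct cells, had 7530, 7577 and 6046 in CflarLKO livers and 3424, 3310 and 2780 in CflarFF livers (1.15, adjusted p = 0.00102), and its partner *Krt18* changed by 0.87. *Clu*, clusterin, a secreted chaperone, had 27671, 24238 and 21061 in CflarLKO livers and 9892, 10790 and 8339 in CflarFF livers (1.33, adjusted p = 0.0008). The markers of ductular cells took 0.141% to 0.204% of the counts in CflarLKO libraries and 0.0224% to 0.0592% in CflarFF libraries, and their part in the rise of other epithelial genes was not tested.

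Stress programs moved in unlike shares, and the differences between them were not tested. Of p53 targets and senescence genes 23.1% rose and 19.2% fell. Of NRF2 targets 37.9% rose and 17.2% fell, and of unfolded protein and integrated stress response genes 5.88% and 17.6%. Of all genes 15.6% rose and 13.1% fell. Of 26 targets of p53 and senescence genes 6 rose and 5 fell, with a median of -0.27. Under library size only 7 rose and 1 fell, with a median of 0.17, and without CflarFF replicate 2 the median was 0.38, with 7 higher and 4 lower of 27 tested. The number that fell ran from 1 to 11 when 1 library was left out and was 2 without CflarFF replicate 1, CflarLKO replicate 1 or CflarLKO replicate 2, 1 without CflarLKO replicate 3 and 11 without CflarFF replicate 3. *Cdkn1a*, the p21 cell cycle inhibitor, had 1080, 1207 and 1152 normalized counts in CflarLKO livers and 2371, 2468 and 1275 in CflarFF livers. Its fall (-0.83, adjusted p = 0.0205) was not called under library size only (-0.38), without CflarFF replicate 1 (-0.71) or without CflarLKO replicate 1 (-0.79), 2 (-0.87) or 3 (-0.84). Of 29 NRF2 targets 11 rose and 5 fell (18 and 3 under library size only; 3 fell without any 1 of the CflarLKO livers). *Gpx2*, an epithelial glutathione peroxidase, had 337, 131 and 106 in CflarLKO livers and 2.22, 5.90 and 9.52 in CflarFF livers (5.03, adjusted p = 0.00281; 4.32 without CflarLKO replicate 1). *Gclc*, the rate-setting enzyme of glutathione synthesis, went the other way, with 4004, 3592 and 3578 in CflarLKO livers and 11318, 7481 and 7381 in CflarFF livers (-1.23, adjusted p = 0.00156). Of 34 genes of the unfolded protein and integrated stress response 2 rose and 6 fell (6 and 1 under library size only; 2 fell without CflarLKO replicate 1 or 2, 4 rose without CflarFF replicate 2 and 1 rose without CflarLKO replicate 1), with a median of -0.30 (0.15 under library size only).

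Death receptor and apoptosis genes, the pathway in which cFLIP acts, did not pass the test for the most part. Of 36 such genes 10 rose (27.8%, against 15.6% of all genes) and 3 fell, *Cflar* among them, with a median of 0.02. Under library size only 15 rose and none of the 3 fell, with a median of 0.49. The number that fell was 6 without CflarFF replicate 2, 1 without CflarLKO replicate 1 or 2 and none without CflarLKO replicate 3. *Casp12*, a caspase of the inflammatory group, had 163, 168 and 153 normalized counts in CflarLKO livers and 17.8, 36.6 and 15.5 in CflarFF livers (2.79, standard error 0.27, adjusted p = 0.000119). *Bmf*, a BH3-only promoter of apoptosis, had 157, 130 and 99.8 in CflarLKO livers and 27.8, 30.7 and 28.5 in CflarFF livers (2.16, adjusted p = 0.000185). *Fas*, a death receptor, stood at 213, 213 and 178 in CflarLKO livers and at 349, 352 and 249 in CflarFF livers (-0.65, adjusted p = 0.0143; not called under library size only, -0.19, or without CflarLKO replicate 3, -0.58).

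**Figure D3:**
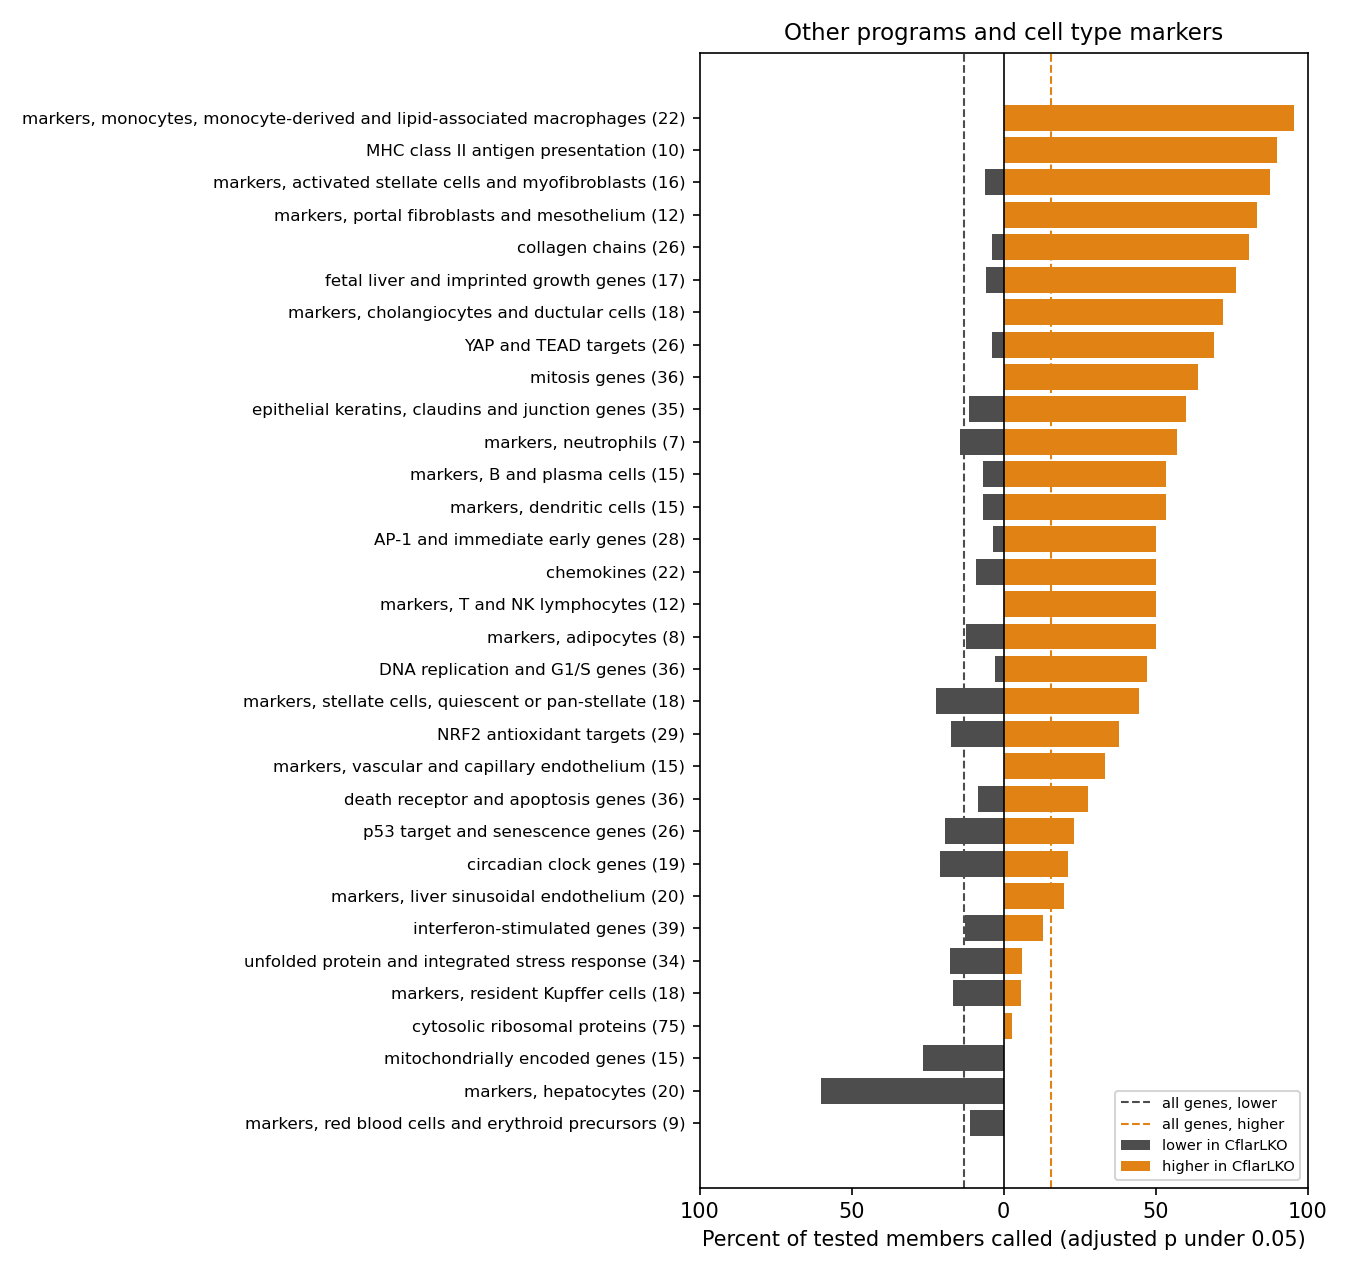
Percent of tested members of response programs and cell type marker lists with at least 7 tested members that were called lower (left of 0) or higher (right of 0) in CflarLKO livers, with the number tested in brackets. Dashed lines mark the 13.1% lower and 15.6% higher of all genes tested. Monocyte and macrophage markers had the highest share higher (95.5%).

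Macrophage and antigen presentation genes rose almost to the last member. Of 22 markers of monocytes and of monocyte-derived and lipid-associated macrophages 21 rose (95.5%), with a median of 2.01, and *Fn1*, fibronectin, which hepatocytes also secrete, did not pass the test. *Gpnmb*, a glycoprotein of lipid-laden macrophages, had 370, 183 and 250 normalized counts in CflarLKO livers and 12.2, 27.1 and 17.8 in CflarFF livers (3.82, standard error 0.34, adjusted p = 0.000132). Of 10 genes of MHC class II presentation 9 rose, with a median of 1.80. *Cd74*, the invariant chain, had 4926, 4116 and 4380 in CflarLKO livers and 1012, 1364 and 846 in CflarFF livers (2.06, adjusted p = 0.000116). *H2-Eb1*, a class II beta chain, had 1950, 1805 and 2047 in CflarLKO livers and 391, 490 and 294 in CflarFF livers (2.30, adjusted p = 5.57e-05).

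Resident Kupffer cell markers moved differently, with 1 higher and 3 lower of 18 and a median of 0.08 (8 higher and 1 lower under library size only). These are 5.56% higher and 16.7% lower, against 15.6% and 13.1% of all genes. *Cd163*, the scavenger receptor for haptoglobin and hemoglobin, had 18.9, 15.6 and 15.6 normalized counts in CflarLKO livers and 112, 76.7 and 54.7 in CflarFF livers (-2.26, standard error 0.31, adjusted p = 0.000596). *Fcna*, a ficolin of Kupffer cells, had 276, 285 and 310 in CflarLKO livers and 544, 514 and 398 in CflarFF livers (-0.74, adjusted p = 0.00403; not called under library size only, -0.29). *Hmox1*, heme oxygenase, was the gene that rose (0.76, adjusted p = 0.0073).

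Some lymphoid and granulocyte markers rose. Of 12 tested T and NK markers 6 rose (10 under library size only, 3 without CflarLKO replicate 2 and 2 without CflarLKO replicate 3). Of 15 B and plasma cell markers 8 rose (5 without CflarLKO replicate 1) and 1 fell, *Xbp1*, a transcription factor of secretory cells that hepatocytes also express (-0.64, adjusted p = 0.0103; not called under library size only, -0.18, or without CflarLKO replicate 1 or 2, both -0.62). The median of these markers was 0.84, and 1.69 without CflarFF replicate 2. Of 7 tested neutrophil markers (20 listed) 4 rose, and 3 with DESeq2, without CflarFF replicate 2 or without any 1 of the CflarLKO livers. *Lcn2*, counted above among the acute-phase genes, was among those that rose. *Wfdc21*, a secreted protein of the WAP family, fell, with 166, 115 and 216 normalized counts in CflarLKO livers and 747, 1513 and 731 in CflarFF livers (-2.60, adjusted p = 0.00223). *Igha*, the IgA heavy chain, had 535, 183 and 190 normalized counts in CflarLKO livers and 16.6, 18.9 and 16.7 in CflarFF livers (4.12, adjusted p = 0.00291; 3.41 without CflarLKO replicate 1). *S100a8*, a calprotectin subunit of neutrophils, had 30.8, 21.7 and 22.9 in CflarLKO livers and 4.44, 4.72 and 3.57 in CflarFF livers (2.54, adjusted p = 0.000938). Interferon-stimulated genes did not follow: of 39 genes 5 rose and 5 fell (12.8% each), with a median of -0.31. Under library size only 9 rose and 2 fell, with a median of 0.15, and 10 fell with DESeq2 and with no filter on low counts. The number that rose was 3 without CflarFF replicate 3, 1 without CflarLKO replicate 1 and 1 without CflarLKO replicate 3, and the number that fell was 3, 8 and 10 without CflarFF replicates 1, 2 and 3 and 2 without CflarLKO replicate 1 or 2. *Isg15*, a ubiquitin-like modifier, had 300.2, 302 and 279 in CflarLKO livers and 916, 547 and 535 in CflarFF livers (-1.18, adjusted p = 0.00198). Of 22 chemokines 11 rose and 2 fell (1 without CflarLKO replicate 1 or 2), with a median of 0.82 (1.23 without CflarFF replicate 2). *Cx3cl1*, a membrane-bound chemokine for monocytes, had 94.5, 99.1 and 83.0 in CflarLKO livers and 5.55, 15.3 and 15.5 in CflarFF livers (2.93, adjusted p = 0.000192), and *Cxcl9*, a ligand of CXCR3, had 60.2, 67.8 and 72.2 in CflarLKO livers and 198, 130 and 132 in CflarFF livers (-1.21, adjusted p = 0.00183).

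Markers of stellate cells and fibroblasts rose for the most part in the activated list and in part in the quiescent one; the difference was not tested. Of 16 markers of activated stellate cells and myofibroblasts 14 rose (87.5%), with a median of 2.19, and *Col3a1*, a fibrillar collagen chain, had 1826, 1674 and 1638 normalized counts in CflarLKO livers and 383, 507 and 301 in CflarFF livers (2.11, adjusted p = 8.87e-05). Of 18 markers of quiescent or all stellate cells 8 rose and 4 fell (13 and 3 under library size only), with a median of 0.86. *Tcf21*, a transcription factor of the stellate lineage, had 423, 377 and 319.9 in CflarLKO livers and 59.9, 101 and 45.2 in CflarFF livers (2.44, adjusted p = 0.000209). *Colec10*, a collectin, had 33.6, 17.4 and 12.0 in CflarLKO livers and 120, 164 and 189 in CflarFF livers (-2.83, standard error 0.32, adjusted p = 0.000284), and *Angptl6*, an angiopoietin-like protein, fell by 1.77. Of 12 portal fibroblast and mesothelium markers 10 rose, among them *Dpt*, dermatopontin, with 299, 379 and 359.6 in CflarLKO livers and 77.7, 67.3 and 74.9 in CflarFF livers (2.23, adjusted p = 2.41e-05). Of 20 sinusoidal endothelial markers 4 rose (20%, near the 15.6% of all genes, and 10 under library size only), with a median of 0.22. *Stab1*, a scavenger receptor, was among them (0.98, adjusted p = 0.00165).

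Immediate early and YAP target genes rose. Of 28 AP-1 and immediate early genes 14 rose and 1 fell, and *Egr2*, a zinc finger transcription factor, had 37.1, 25.2 and 36.1 normalized counts in CflarLKO livers and 4.44, 5.90 and 1.19 in CflarFF livers (3.05, adjusted p = 0.000819). Of 26 targets of YAP and TEAD 18 rose (69.2%) and 1 fell, and *Ankrd1*, a nuclear ankyrin repeat protein, had 98.7, 60.8 and 97.4 in CflarLKO livers and 7.77, 15.3 and 8.33 in CflarFF livers (3.02, standard error 0.34, adjusted p = 0.000212). The gene that fell in both lists was *Gadd45b*, a stress sensor that the liver induces in regeneration, with 107, 99.96 and 118 in CflarLKO livers and 229, 198 and 184 in CflarFF livers (-0.92, adjusted p = 0.00198).

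Livers of the control group differed from each other more than CflarLKO livers did. The SD of the log2 level over 3 livers had a median of 0.176 over genes in CflarLKO livers and 0.258 in CflarFF livers, and it was the larger one in CflarFF livers for 67.2% of genes. Any 2 CflarLKO livers differed over 2-fold in 326 to 436 genes. CflarFF replicates 1 and 3 differed over 2-fold in 792 genes, replicates 1 and 2 in 1130 and replicates 2 and 3 in 1373. Replicate 2 was thus the control farthest from the other controls. It differed over 2-fold from the CflarLKO livers in 1987 to 2406 genes, more than from either of the other controls.

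That distance ran in part along the CflarLKO difference. For 61.4% of the 2652 genes higher in CflarLKO livers and for 58.0% of the 2240 lower genes, CflarFF replicate 2 was the control nearest to the CflarLKO mean, against 21.7% and 24.5% for replicate 1 and 17.0% and 17.5% for replicate 3. Across genes the difference of replicate 2 from replicate 1 or 3 had a slope of 0.258 or 0.283 on the difference of the CflarLKO mean from the remaining control, and replicate 1 minus replicate 3 a slope of 0.0146; these slopes describe 3 livers. Without replicate 2, 3017 genes were higher and 2616 lower of 17863 tested.

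List levels placed each control on that path. With each gene set to the mean of its 6 livers, markers of ductular cells had median log2 levels of 0.90, 0.81 and 0.77 in CflarLKO livers and -1.22, -0.08 and -1.12 in CflarFF livers. For the P450 genes these levels were -0.79, -0.76 and -0.49 in CflarLKO livers and 0.95, 0.13 and 0.83 in CflarFF livers, and for complement -0.48, -0.39 and -0.42 in CflarLKO livers and 0.64, 0.04 and 0.65 in CflarFF livers. In these lists replicate 2 lay between the CflarLKO livers and the other controls. For myofibroblast markers it was level with replicate 1, with 1.20, 0.97 and 0.86 in CflarLKO livers and -0.79, -0.78 and -1.12 in CflarFF livers. For B and plasma cell markers it lay among the controls, with 0.76, 0.56 and 0.46 in CflarLKO livers and -0.52, -0.66 and -0.83 in CflarFF livers. In sterol genes and major urinary protein genes it lay outside both groups, at 0.92 and 2.59, against -0.49 to -0.18 and -1.17 to 0.01 in CflarLKO livers and -0.09 to 0.03 and -0.63 to -0.49 in the other CflarFF livers.

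**Figure D4:**
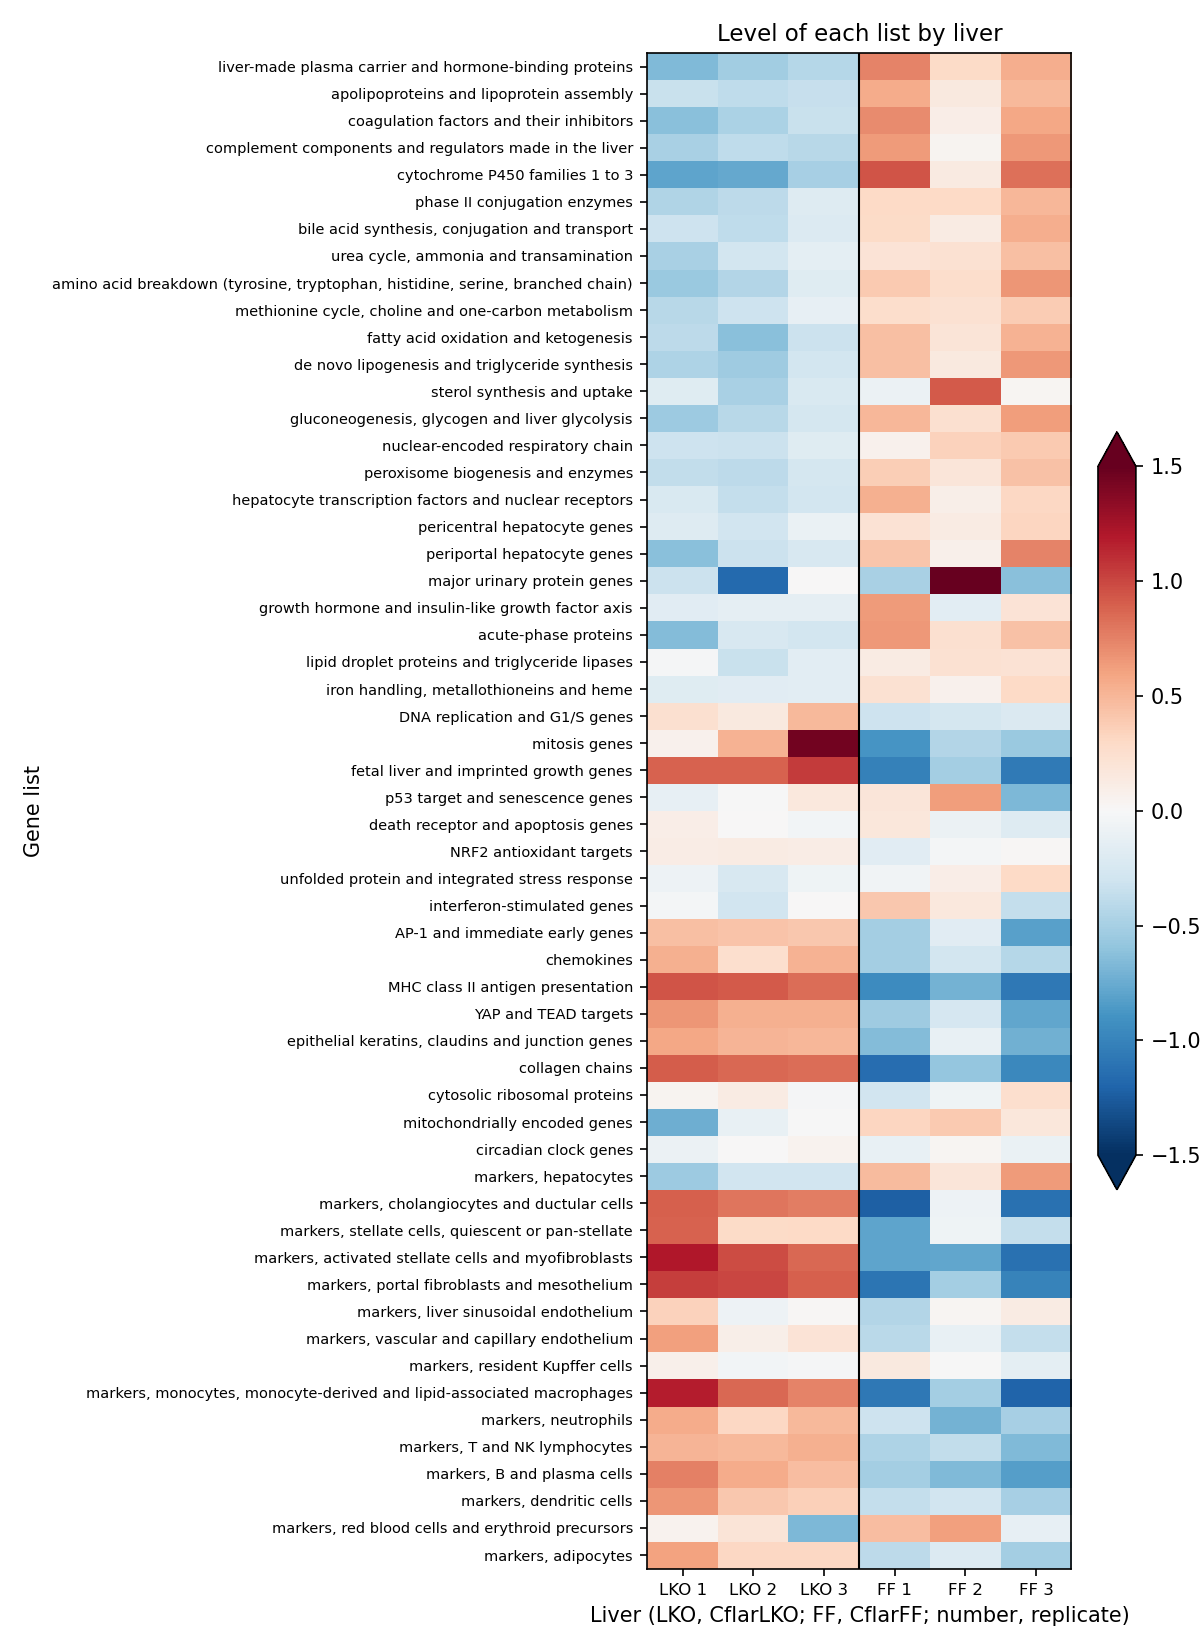
Median log2 level of the tested members of each list in each liver, relative to the mean of the 6 livers, with CflarLKO livers left and CflarFF livers right of the line. Colors run from -1.5 (blue) to 1.5 (red). CflarFF replicate 2 is paler than the other controls in most hepatocyte lists and reaches 2.59 for major urinary protein genes.

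The 10 genes with the widest range over CflarFF livers all had replicate 2 at 1 end of it. *Scd1*, the main stearoyl-CoA desaturase of the liver, had 1366, 7644 and 3087 normalized counts in CflarLKO livers and 13210, 218 and 11614 in CflarFF livers (-1.05, adjusted p = 0.652). *Depp1*, a regulator of autophagy induced by FOXO factors, had 69.3, 83.4 and 74.6 in CflarLKO livers and 2929, 107 and 1220 in CflarFF livers (-4.23, adjusted p = 0.0738; -4.77 and called without CflarFF replicate 2). *Sult1e1*, which inactivates estrogens, had 4049, 3100 and 4007 in CflarLKO livers and 73.3, 2026 and 212 in CflarFF livers (2.27, adjusted p = 0.273; 4.71 and called without CflarFF replicate 2). In *Depp1* and *Sult1e1* replicate 2 was close to the CflarLKO livers, whereas in *Scd1* it was below all of them. *Hamp2*, a hepcidin paralog, had 1074, 1808 and 808 in CflarLKO livers and 3440, 153 and 2743 in CflarFF livers. *Gpc3*, an oncofetal glypican, had 267, 99.1 and 196 in CflarLKO livers and 17.8, 519 and 83.3 in CflarFF livers (-0.13, adjusted p = 0.949; 1.91 without CflarFF replicate 2). *Npnt*, nephronectin, had 386, 211 and 299 in CflarLKO livers and 12.2, 283 and 117 in CflarFF livers. *Myom1*, a muscle myomesin, reached 621 in CflarFF replicate 2, *Akr1c18*, a progesterone-reducing enzyme, 457, *Fndc5*, the irisin precursor, 434 and *Glod5*, a glyoxalase domain protein, 168.

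**Figure D5:**
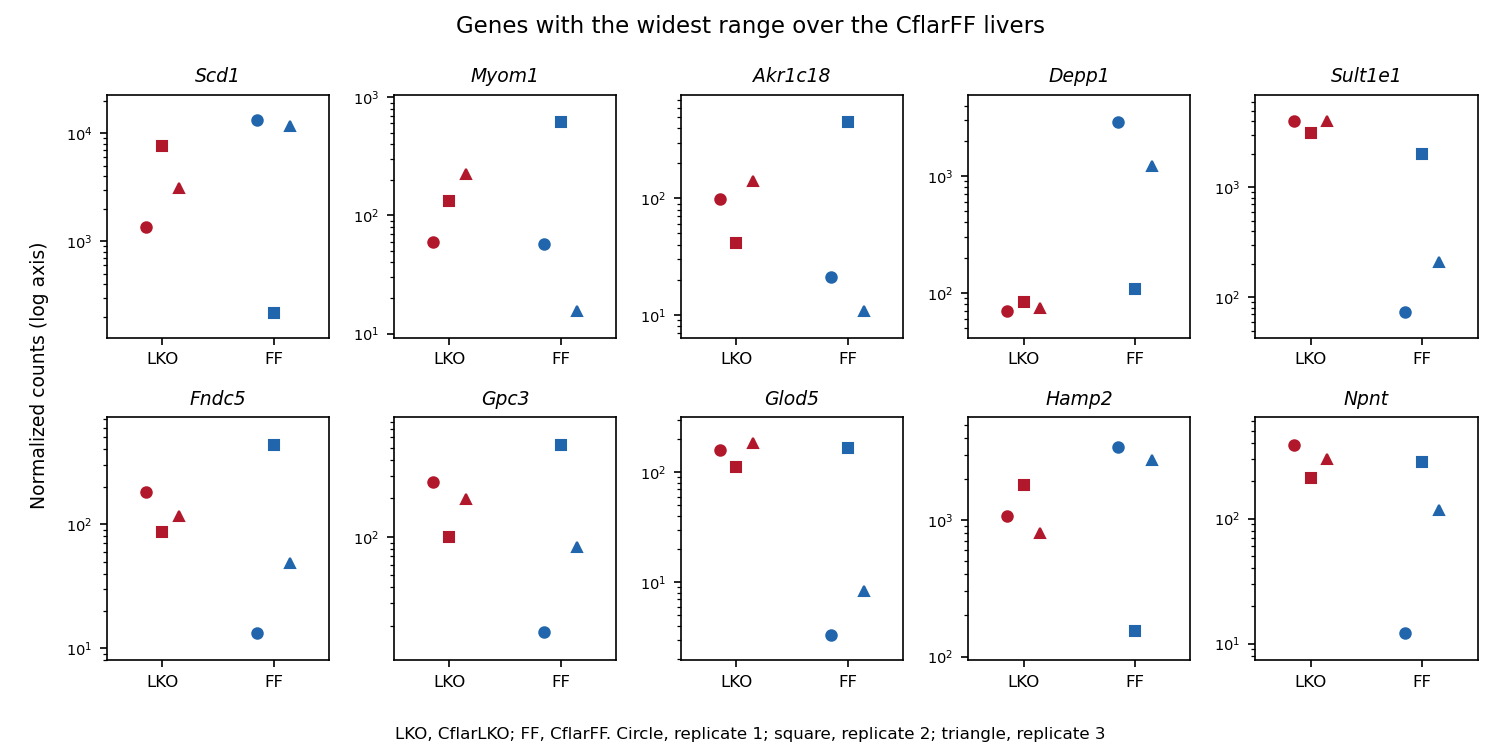
Normalized counts (log axis) in each liver of the 10 genes with the widest range over CflarFF livers, CflarLKO left and CflarFF right, with a symbol for each replicate. CflarFF replicate 2 (square) is the highest or lowest control in each; *Scd1* had 218 in it, against 13210 and 11614 in the other controls.

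Spread within the CflarLKO group was concentrated in few programs. For mitosis genes the median SD was 0.753 in CflarLKO livers and 0.424 in CflarFF livers, and list levels were 0.06, 0.52 and 1.45 in CflarLKO livers and -0.88, -0.44 and -0.55 in CflarFF livers. *Ube2c*, which tags mitotic cyclins for breakdown, had 49.0, 113 and 221 normalized counts in CflarLKO livers and 22.2, 26.0 and 32.1 in CflarFF livers (2.22, adjusted p = 0.0272), and its call was lost without any 1 of the CflarFF livers (2.09, 2.19 and 2.37) or CflarLKO replicate 2 (2.30), with a change of 1.58 without CflarLKO replicate 3. *Cdca3*, a trigger of mitotic entry, had 30.8, 66.9 and 238 in CflarLKO livers and 14.4, 46.0 and 23.8 in CflarFF livers (1.95, adjusted p = 0.188). *Rgn*, regucalcin, an enzyme of ascorbate synthesis, had 122, 263 and 681 in CflarLKO livers and 2906, 1804 and 1405 in CflarFF livers (-2.54, adjusted p = 0.0553). CflarLKO replicate 3, which had the fewest counts, was thus the highest of its group for these genes and for most hepatocyte lists, and replicate 1 was the lowest for the mitochondrially encoded genes, at -0.74, against -0.11 and 0.00 in the other CflarLKO livers and 0.32, 0.39 and 0.17 in CflarFF livers.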

How the data were processed

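Polyadenylated RNA of 6 whole livers was sequenced. Per the study's methods the authors mapped the reads to GRCm39 with Bowtie2. They deposited whole-number read counts per gene and library, and normalized values made with TCC-GUI, a signal that equals the counts divided by 1 factor per library, as the deposited values show. The counter and the annotation are not given in the sources used here. Genes are named by symbol without coordinates. 0 columns were left unmapped.

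Counts were analysed in R 4.3.3 with edgeR 4.0.16 (TMM, filterByExpr with a minimum count of 10 and a minimum total of 15, robust quasi-likelihood fit), on these 6 libraries only. Levels for the spread are log2(CPM + 0.5). P-values measure the spread between 3 mice per group. Shares of counts were compared by exact two-sided permutation tests, whose smallest p is 0.1, so that no share could pass. Alternatives used DESeq2 1.42.0, limma 3.58.1 and other scalings, filters and subsets of libraries.

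The members, the 60 gene lists and the tests were chosen with earlier results of these data known. Genes named were *Cflar*, for each list the 2 with the most counts and the 2 with the largest called rise and fall without overlap (mean of normalized counts 20 or more), the 10 called genes with the most counts in each direction, and the 10 with the widest range in each group (mean 50 or more). *Afm* and *C4bp* were named after their values were seen. Some genes that the rule names are not reported here. The HNF1 element was searched in RefSeq promoters (GRCm38.p6). The pipeline was tested on simulated data.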

Additional observations from a re-analysis of the deposited data

How the results depend on the processing

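Library size only gave 6649 higher and 647 lower genes, 3575 and 238 of them over 2-fold, in place of 2652, 2240, 1980 and 691, since the 2 groups differ in their TMM factors. The replicate block, added although replicate numbers were not shown to pair the livers (correlations of same-numbered deviations -0.117, -0.101 and 0.038), gave 2408 higher and 1862 lower genes. The number of lower genes ran from 1235 (without CflarLKO replicate 2) to 2616 (without CflarFF replicate 2), and was 1280 without CflarLKO replicate 1. The 4 counts moved by less than 1.5 times with RLE factors, no filter, 10 counts in 3 libraries, DESeq2, limma-trend and the block. Limma-trend made 38.7% of calls lower genes, against 45.8%.

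None of the genes that turned in sign had passed the test over all 6 livers, and *Akr1c18* and *Fndc5* passed it only without CflarFF replicate 2. Under library size only log2 fold changes were 0.40 for *Ahsg*, 0.32 for *Cebpb*, 0.13 for *Mat1a*, 0.29 for *Fn1*, 0.27 for *Gpc3* and 0.048 for *Fndc5*. Under limma-trend they were 0.028 for *Scd1*, 0.085 for *Hamp2*, 0.95 for *Gpc3*, 0.59 for *Myom1*, 0.85 for *Akr1c18* and 0.93 for *Fndc5*. Under the replicate block they were 0.71 for *Gpc3*, 0.13 for *Myom1*, 0.57 for *Akr1c18* and 0.60 for *Fndc5*. Leaving out 1 library gave -0.13 to 0.030 for *Ahsg*, -0.81 to 0.21 for *Hmgcs1*, -0.68 to 1.91 for *Gpc3*, -1.32 to 1.88 for *Myom1*, -1.37 to 2.52 for *Akr1c18* and -0.91 to 2.07 for *Fndc5*, the upper ends without CflarFF replicate 2. The cause was not tested.

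List medians moved by over the spread between livers in 54 of 60 lists under library size only and in 19 without CflarFF replicate 2. Genes under about 20 normalized counts are limited by depth.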
